A study of Tachycineta bicolor and Sialia sialis and Hirundo rustica with 121 samples.

Results

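Male and female Carolina Wrens (Thryothorus ludovicianus) were compared in their gene expression in the ventromedial telencephalon, a part of the songbird forebrain that holds nodes of the network for social behaviour. The comparison used 10 birds, 5 females and 5 males, out of 61 females and 60 males in a series of 10 songbird species built around nesting strategy and territorial aggression. All were adults of a facultative cavity nester, a species that uses cavities but does not depend on them, sampled while territories were being set up and nests built, ahead of laying. The labels of both sexes shared the tissue, nesting habit and season, and they named no agent, age in days or date. The females were birds 2, 3, 6, 7 and 8 and the males birds 4, 5, 6, 7 and 8.

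Bird sex is set by the Z and W chromosomes: males carry a pair of Z chromosomes, and females carry 1 Z and 1 W. Most Z genes in birds are not brought to equal output in the sexes, so that males tend to hold more of their RNA than females. A small number of W genes survive, most of them with a related partner on the Z, and such pairs are called gametologues. Reads from a W copy may be counted under its Z partner where the reference holds only 1 of them.

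Both libraries left out were chosen by 1 gene, CHD1W, the W copy of the chromatin remodeller CHD1. The females kept held 65.2, 52.2, 62.0, 56.8 and 63.3 CPM (a gene's read count set on a common library total, after scaling by the trimmed mean of M values over the 12 Carolina Wrens). The males kept held 9.18, 7.40, 7.72, 9.62 and 14.3 CPM. The library labelled female 1 held 8.14 CPM, and the library labelled male 3 held 63.9 CPM. CHD1W is given as a description, although it is counted among the 25 genes called higher in females below. In the other 9 species, no male library reached the lowest female of its own species.

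Genes that did not choose the libraries gave the same reading of them. Of 141 Z genes called higher in males, 129 lay nearer to the male mean in the library labelled female 1, and 135 lay nearer to the female mean in the library labelled male 3. Of 24 genes higher in females, with CHD1W set aside, 22 lay nearer to the male mean in the library labelled female 1. The 2 exceptions were MACIR at 126 CPM and CFAP43 at 21.9 CPM. With all 12 birds compared under their labels, edgeR called 0 genes, with 584 at an unadjusted p under 0.05, and DESeq2 called 12.

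**Figure D1:**
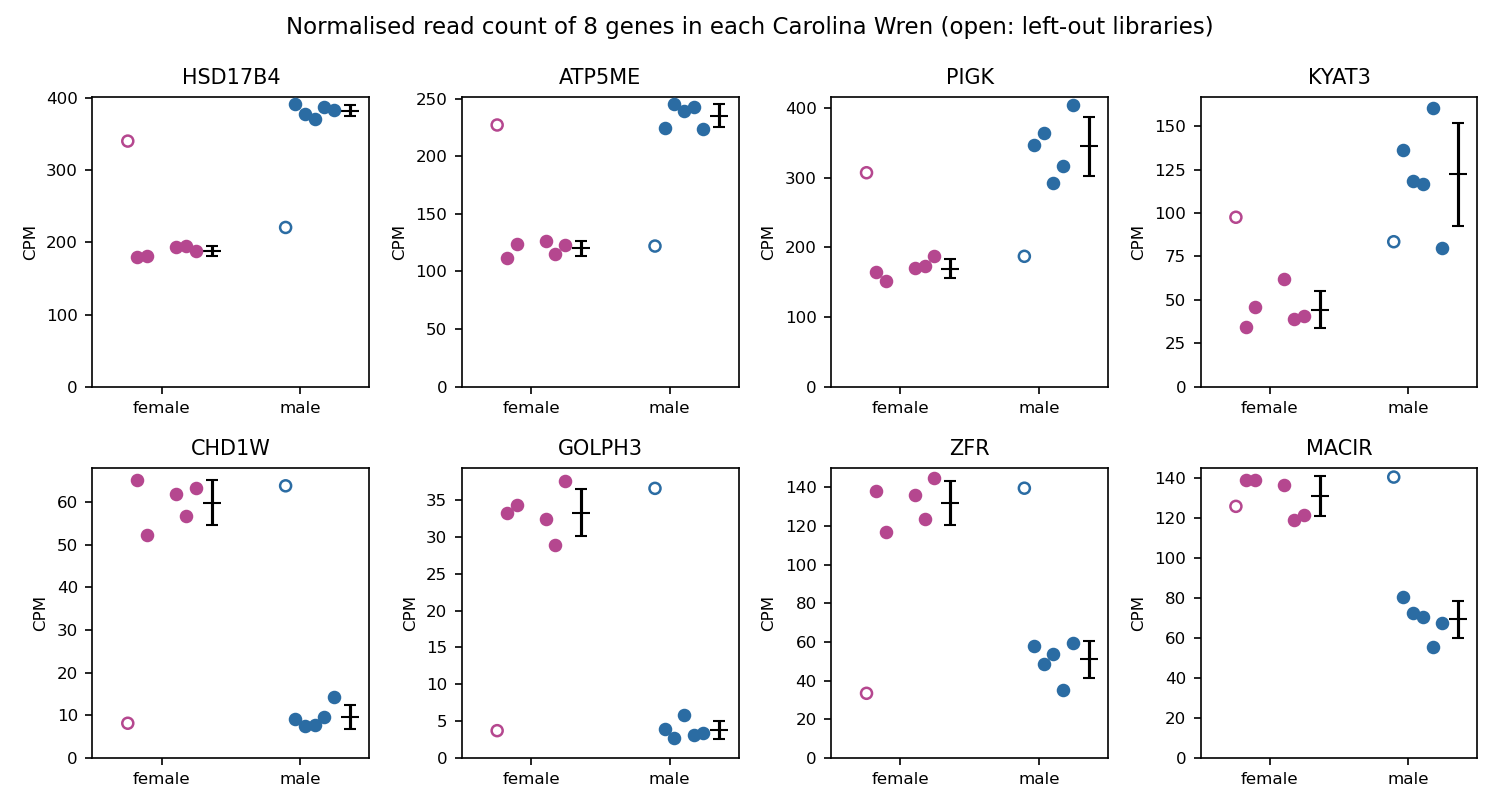
Normalised read count in CPM of 8 genes in each Carolina Wren, females and males side by side. Filled points are the 5 birds of each sex compared, open points the left-out libraries at their labelled sex, and the bars the mean ± SD of the filled points; the 5 females and 5 males do not overlap for any of the 8 genes, and the open points lie nearer to the other sex except for 2: the library labelled female 1 sits at 126 CPM among the females for MACIR, and the library labelled male 3 at 83.4 CPM among the males for KYAT3.

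In the 10 birds, 10417 of 10672 genes passed the filter on low counts, and total counts ran from 5849087 to 7549296 per bird. The first principal component held 39.9% of the variance and set female 6 and males 4 and 8 apart from the rest. The second held 18.1% and separated all females from all males. The choroid plexus marker TTR (transthyretin) ran from 15.2 to 6384 CPM in females and from 2.06 to 2683 CPM in males. The 21 measured markers of inhibitory and striatal neurons summed to 2454 to 2798 CPM in females and 2182 to 3023 CPM in males, and the 4 measured hypothalamus markers to 19.2 to 58.9 CPM over both sexes. Nothing in the labels said more of how the birds were sampled, so the p-values measure the spread between these birds.

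Sex differences were tested with edgeR's quasi-likelihood test, with p-values adjusted by the Benjamini-Hochberg method over all genes tested. At an adjusted p under 0.05, 250 genes differed, 2.4% of those tested, 225 of them higher in males (2.16%) and 25 higher in females (0.24%). In 247 of the 250 the birds of one sex lay wholly above those of the other, and over all genes tested 325 did so (3.12%). The male-higher genes were mostly genes known to lie on the Z of birds, while the female-higher ones were mostly entries without a symbol that males hardly expressed.

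Z linkage was read from a list of 439 symbols known to lie on the avian Z, because the table gave no chromosome. The table held 306 of them, and 299 were tested. Males were higher for 141 of the 299 and females for 3, and 155 were not called. The median log2 difference, male minus female, was 0.65 over the 299 genes, with quartiles at 0.34 and 0.92, beside -0.02 over the 10118 genes outside the list. A difference of 0.65 is a ratio of 1.57. Of the 299 genes, 113 differed by at least 0.8, 96 by 0.4 to 0.8 and 75 by 0 to 0.4, and 15 lay below 0. The male excess was therefore graded from gene to gene, with 284 of 299 genes above 0.

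**Figure D2:**
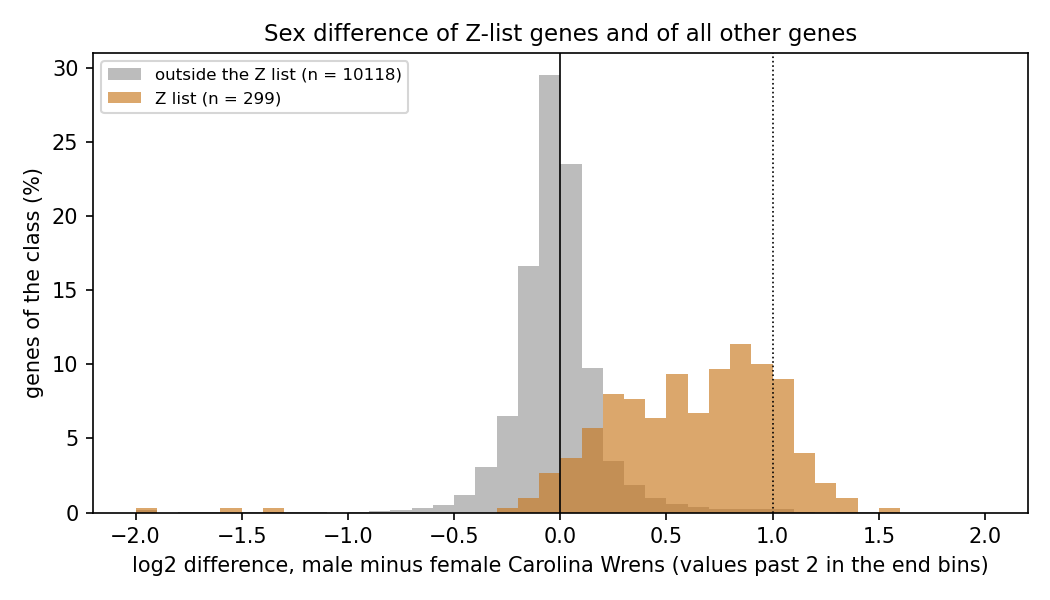
Distribution of the log2 difference, male minus female Carolina Wrens, as a percentage of the 299 genes of the Z list and of the 10118 genes outside it. The dotted line marks a doubling; the Z genes spread around a median of 0.65, with 15 below 0 and some past the line, and the other genes centre on -0.02.

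Each bird followed its group. The median level of the 299 Z genes, on a log2 scale with each gene centred on the mean of the 10 birds, was -0.30, -0.42, -0.24, -0.29 and -0.34 in the females. It was 0.44, 0.30, 0.23, 0.27 and 0.43 in the males. Every male lay above every female. Males 4 and 8, the highest, were also the males that the first component set apart, and female 6, also set apart, was the highest female. Without these 3 libraries the median difference was 0.58. With the first component as a covariate it was 0.62, with 155 Z genes called higher in males.

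HSD17B4, a peroxisomal enzyme of fatty acid oxidation that also converts oestradiol to oestrone, had the smallest p among Z genes higher in males. The females held 180, 182, 194, 195 and 189 CPM, and the males 392, 379, 372, 388 and 383 CPM. The lowest male stood far above the highest female, and each sex varied little. Males exceeded females by a log2 difference of 1.03 (SE 0.0626, edgeR adjusted p = 1.87e-06).

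The next genes by p came from many cell functions. CCNH, the cyclin of the kinase that activates other cyclin-dependent kinases, averaged 44.6 ± 2.98 CPM in females and 91.7 ± 1.52 CPM in males (SD, n = 5 each). TXN (thioredoxin, a redox protein) averaged 58.1 ± 3.68 and 125 ± 8.27 CPM, and PLPP1 (a lipid phosphatase) 42.1 ± 2.83 and 87.9 ± 4.83 CPM. The following genes were FOCAD, MRPS30 (mitochondrial ribosome), DCTN3 (the dynactin motor complex), NDUFS4 (respiratory complex I), NSA2 (ribosome assembly), SLC30A5 (zinc transport), CWC27 (splicing), MCCC2 (leucine breakdown), UBAP1 (endosomal sorting), RPL37 (cytosolic ribosome) and APTX (DNA repair). Their log2 differences lay between 0.87 for UBAP1 and 1.36 for APTX, and in none did the sexes overlap.

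Grouped by role, in groups put together after the values were seen, the Z genes of protein synthesis had 11 of 12 tested members higher in males, beside 47.2% of the Z list, with a median log2 difference of 0.99. RPS6, a protein of the small ribosomal subunit, averaged 249 ± 27.8 CPM in females and 493 ± 43.9 CPM in males, with a log2 difference of 0.98 (SE 0.0979). BRIX1 and UTP15, both of ribosome assembly, differed by 1.12 and 0.93. The member not called was RPS23, with a log2 difference of 1.00 (SE 0.292), where the sexes overlapped.

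Genes of mitochondrial energy use and of lipid and amino acid metabolism followed. Of 9 mitochondrial genes 6 were higher in males (median 0.88), among them NDUFS4 at 0.99, AK3 (a mitochondrial adenylate kinase) at 1.29 and ATP5F1A (the alpha subunit of ATP synthase) at 0.88. NDUFB6 was not called, at 0.19. Of the 11 genes of lipid and amino acid metabolism 7 were higher in males (median 0.80), such as ACAA2 (the last step of mitochondrial fatty acid oxidation) at 1.25 and SPTLC1 (the first step of sphingolipid synthesis) at 0.75. PSAT1 (serine synthesis) was not called at 0.32.

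Z genes of neural and endocrine signalling had fewer calls than the 47.2% of the Z list, in groups made after the values were seen. Of 19 genes of excitability, synapse and axon 2 were higher in males, although all 19 estimates were above 0 (median 0.30). The 2 were PTPRD, a synaptic adhesion phosphatase, at 105 ± 8.88 and 159 ± 19.4 CPM, and SCAMP1, a vesicle membrane protein, at 71.9 ± 7.06 and 103 ± 10.1 CPM (SD, n = 5 each). MAP1B, a microtubule protein of axons, averaged 880 ± 182 CPM in females and 1023 ± 131 CPM in males and was not called. Of 13 genes of hormone, cytokine and growth factor signalling 0 were called by edgeR, with a median of 0.43. Of 16 transcription and chromatin genes SMARCA2, a chromatin remodeller, was called at 0.65 (SE 0.106). In the other 9 species, with 55 females and 54 males, males were higher for 19 of the 19 excitability genes, 9 of the 13 signalling genes and 13 of the 16 transcription and chromatin genes, beside 267 of the 299 genes of the Z list.

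PRLR, GHR and HTR1A were among the receptor genes of that group. PRLR, the prolactin receptor, stood at 16.4, 18.3, 15.1, 21.8 and 12.8 CPM in females and 29.5, 20.7, 17.8, 24.4 and 34.7 CPM in males. The highest males were again birds 4 and 8, and the sexes overlapped. The log2 difference was 0.59 (SE 0.2, edgeR adjusted p = 0.342). GHR, the growth hormone receptor, averaged 7.57 ± 2.64 and 13.0 ± 1.65 CPM and overlapped in female 7 (adjusted p = 0.131 by edgeR). HTR1A, a serotonin receptor, averaged 2.76 ± 0.423 and 4.16 ± 1.44 CPM (adjusted p = 0.782 by edgeR). TEK, another receptor, was the only 1 of the 13 genes in which the sexes did not overlap. It ran from 10.4 to 18.5 CPM in females and from 21.5 to 27.0 CPM in males, and edgeR did not call it.

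At the other end of the list stood Z genes at like levels in the sexes. The 6 lowest with at least 20 CPM in both sexes, outside the female direction, were SMAD2, TMEM245, TXNL1, SLC24A2, ST8SIA3 and NFX1, with log2 differences from -0.23 to -0.05. SMAD2, a transducer of TGF-beta signals, had 35.5, 32.1, 35.4, 33.5 and 34.4 CPM in females and 32.9, 31.1, 27.4, 26.5 and 27.5 CPM in males. Males 5, 6, 7 and 8 lay below all females, and male 4 lay above female 3. SMAD2, TXNL1 and ST8SIA3 belong to the Z genes with a W copy.

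Genes of Z and W pairs were measured for 15 members, CHD1W among them. Males were higher for 4 of the 15 (26.7%), beside 47.2% of the Z list and 2.16% of all genes tested. These were ATP5F1A, BTF3 (a transcription and translation factor) at 0.94, RASA1 (a Ras inhibitor) at 0.53 and HNRNPK (an RNA-binding protein) at 0.37. The calls of RASA1 and HNRNPK were each lost in 8 of 10 fits that left out 1 bird. GOLPH3, ZFR and CHD1W were higher in females. CHD1 itself averaged 97.6 ± 9.71 CPM in females and 119 ± 16.1 CPM in males and was not called (adjusted p = 0.466 by edgeR), nor were SPIN1, UBE2R2, SMAD2, NIPBL, TXNL1, ST8SIA3 and TNPO1.

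GOLPH3, a Golgi protein of vesicle budding, was 8.72 times higher in females. The females held 33.2, 34.3, 32.4, 28.9 and 37.6 CPM and the males 3.97, 2.76, 5.83, 3.09 and 3.42 CPM. The lowest female stood far above the highest male. The log2 difference was -3.11 (SE 0.193, edgeR adjusted p = 2.09e-06). In House Wrens, the other species of the family, GOLPH3 was higher in males by 0.80 on the log2 scale, and the difference between the wrens was -3.91 (edgeR interaction, adjusted p = 1.35e-12). Yellow Warblers shared the female excess, at -4.67, and in the American Robin, Barn Swallow and Tree Swallow males were higher by 0.61 to 0.89.

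ZFR, a zinc finger RNA-binding protein, was also higher in females. The females held 138, 117, 136, 124 and 145 CPM and the males 58.0, 48.5, 53.9, 35.2 and 59.2 CPM. The highest male lay well below the lowest female. The log2 difference was -1.37 (SE 0.134, edgeR adjusted p = 9.11e-05). Over the other 9 species ZFR was higher in males by 0.33, and the difference from them was -1.69 (edgeR interaction, adjusted p = 6.83e-13). In House Wrens alone the estimate was -0.27 and was not called (edgeR adjusted p = 0.163). The wrens differed by -1.09 (edgeR interaction, adjusted p = 0.00201).

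DCAF12, a substrate receptor of a ubiquitin ligase, completed the Z genes higher in females. It stood at 11.7, 9.61, 10.2, 9.85 and 8.71 CPM in females and 3.56, 2.47, 2.62, 3.78 and 4.51 CPM in males. The groups did not overlap, and the log2 difference was -1.56 (SE 0.199, edgeR adjusted p = 0.000575). Females were also higher in the American Robin, Eurasian Tree Sparrow, Prothonotary Warbler and Yellow Warbler, with log2 differences from -6.75 to -2.11, and House Wrens differed from Carolina Wrens (interaction -1.54, edgeR adjusted p = 0.000422). For all 3 genes, reads from a W copy counted under the Z symbol cannot be told apart here from reads of the Z copy.

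Females were higher for 22 genes outside the list (0.217% of 10118), of which 17 carried no symbol. CHD1W, MACIR, NUDT7 and CFAP43 were among those with a symbol. Of the 17 without a symbol, 16 were also called higher in females over the other 9 species. LOC100190380 stood at 115, 129, 114, 113 and 129 CPM in females and 0.959, 1.74, 1.60, 1.89 and 2.80 CPM in males. LOC116806990 stood at 146, 90.7, 147, 154 and 96.3 CPM in females, and over the 5 males 1 read was counted in all. In House Wrens LOC116806990 was not called, with a log2 difference of -0.05 (edgeR adjusted p = 0.789).

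MACIR, a regulator of macrophage metabolism, differed in another way, with strong expression in both sexes. The females held 139, 139, 136, 119 and 121.5 CPM and the males 80.6, 72.3, 70.6, 55.3 and 67.6 CPM. Females were higher by a factor of 1.89 with no overlap (log2 difference -0.92, SE 0.103, edgeR adjusted p = 0.000221). Over the other 9 species females were higher too, with a log2 difference of -0.39 (edgeR adjusted p = 1.34e-07). Human chromosomes were not looked up for female-higher genes, so a place on the Z was not tested for MACIR. NUDT7 (a peroxisomal coenzyme A hydrolase) and CFAP43 (a cilium protein) were higher in females by factors of 1.75 and 1.85 and were not called in the other 9 species. The calls of NUDT7 and CFAP43 were lost in 7 and 9 of 10 fits that left out 1 bird. CFAP43 was the only called choroid plexus and ependyma marker of 10, and the summed level of these markers ran from 167 to 6597 CPM in females and 120.8 to 2849 CPM in males.

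Outside the list 106 of 10118 genes were called (1.05%), and 84 of them were higher in males (0.83%). These 84 could be split by the other 9 species, whose birds had no part in the Carolina Wren fit. Those species had 560 genes called of 10648 (5.26%), 441 of them higher in males (4.14%). Of the 84, 66 were higher in males there, 1 was higher in females and 17 were not called. Of the 141 Z-list genes higher in male Carolina Wrens, 141 were also higher in males there.

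The 66 shared genes were compared in size with the called Z genes. Their median log2 difference in Carolina Wrens was 0.92, from 0.46 to 1.57, beside 0.90 for the 141 called Z genes. In the other 9 species it was 0.89, beside 0.88. All 66 had no overlap between the sexes, beside 138 of the 141 called Z genes. Over all genes tested 325 of 10417 had none (3.12%). Of the 250 called genes 247 had none, so this trait largely follows from the call. Symbols that name a place on the Z were tested for 7 genes, of which 5 were higher in males: CZH5orf34, CZH5orf51, CZH5orf63, CZH9orf64 and CZH9orf85. This stands beside 2.16% of all genes tested and 47.2% of the Z list. For symbols of this form that name another bird chromosome, 0 of 62 tested genes were called. Such a symbol gives the bird chromosome before the H and the human one after it.

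The avian Z is known to hold genes whose human counterparts lie on chromosomes 5, 9 and 18. Of the 57 shared genes with a symbol, the human gene lies on chromosome 9 for 32, on 5 for 14 and on 18 for 3. These chromosomes were written down after the calls were seen, and the other genes tested were not looked up in this way. Those 3 chromosomes cover 49 of the 66, which makes these 49 candidates for Z genes that the list lacks. For the 5 CZH genes among them the symbol names the Z, and for the others the table holds no chromosome to test it. C9orf72 (a regulator of autophagy and lysosomes) averaged 50.1 ± 6.87 CPM in females and 104 ± 14.7 CPM in males. RNF20 (a ubiquitin ligase for histone H2B) averaged 127 ± 17.3 and 252 ± 25.2 CPM, and XPA (DNA repair) 20.6 ± 2.32 and 43.4 ± 4.82 CPM. ZFAND5, SERF1A, PUM3, SRFBP1, CREB3 and ABHD17B, also named by the rule, differed by 0.93 to 1.17 on the log2 scale. RPL17 was among the shared genes and holds the same counts in every bird as an entry without a symbol, so both count the same reads.

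The 8 remaining shared genes lie elsewhere in the human genome, 4 of them close together near the tip of the short arm of chromosome 4. ATP5ME, a subunit of ATP synthase, had the smallest p of all genes outside the list that were higher in males. The females held 112, 124, 127, 115 and 123 CPM and the males 225, 245, 239, 243 and 224 CPM. The sexes lay well apart, with a log2 difference of 0.97 (SE 0.0696, edgeR adjusted p = 7.1e-06) and 0.90 in the other 9 species. IDUA (a lysosomal iduronidase) differed by 0.98, PIGG (GPI anchor synthesis) by 1.06 and TMEM175 (a lysosomal channel) by 0.46. Their human neighbours PCGF3, DGKQ and GAK had estimates of 0.59, 0.52 and 0.38 that were not called here, and males were higher for all 3 in the other 9 species. CPLX1, SLC26A1, CTBP1 and MAEA, from the same stretch, were called in neither. The others were FUT10 at 1.33, FNTA and NRG1 on human chromosome 8, and LSM5 on human chromosome 7.

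**Figure D3:**
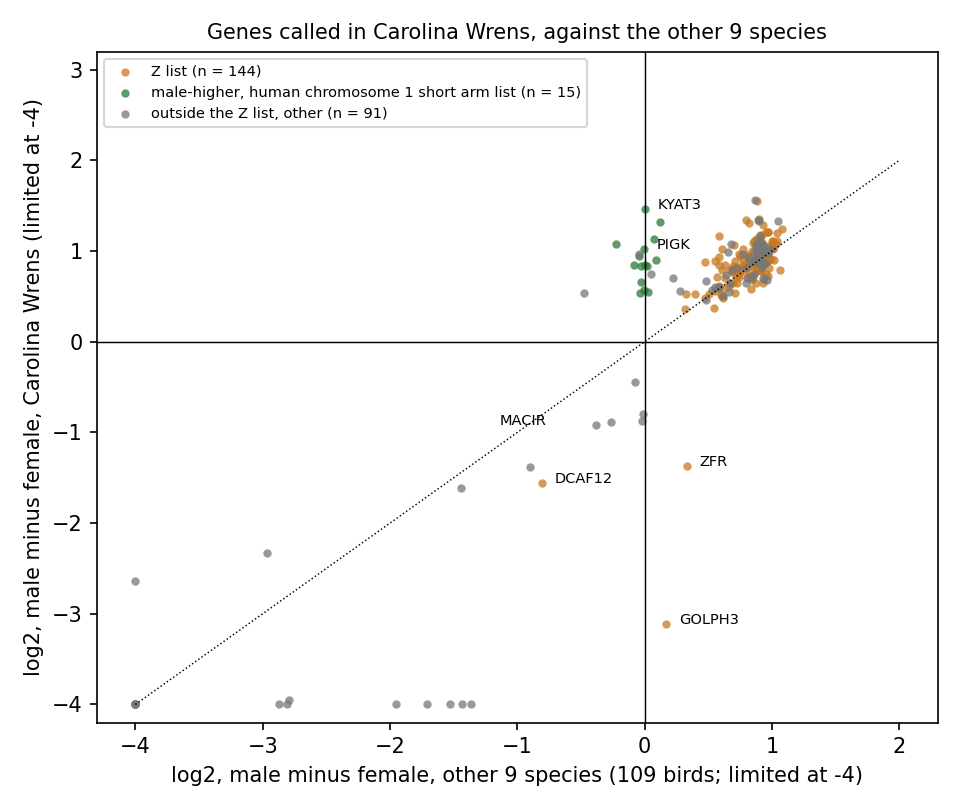
Log2 difference, male minus female, in Carolina Wrens (vertical axis) against the other 9 species (horizontal axis) for the 250 genes called in Carolina Wrens, with values below -4 drawn at -4. Z-list genes and most others lie near the dotted line of equal difference. The 15 male-higher genes of the human chromosome 1 short arm stand above 0 in Carolina Wrens and between -0.22 and 0.12 in the 9 species fitted together. Of the 15, SELENOF, KYAT3, RPAP2, RTCA and DPH5 were called higher in males in House Wrens fitted by themselves. GOLPH3 and ZFR lie below 0 in Carolina Wrens and above 0 in the 9 species fitted together.

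The 17 genes that were higher in male Carolina Wrens and not called in the other 9 species were kept as a class of their own. Their median log2 difference was 0.85 in Carolina Wrens. Over the other 9 species fitted together, where the choice kept it low, the median was -0.00, and the estimates lay between -0.22 and 0.12. All 15 of them with a symbol have their human gene on the short arm of chromosome 1: PIGK, SELENOF, KYAT3, RTCA, EIF2B3, DPH5, RPAP2, MMACHC, DNTTIP2, CFAP57, RPF1, F3, ALG14, RWDD3 and CTBS. A list of 246 genes of this arm, of which 200 were tested, was drawn up after the calls were seen. It covers a middle part of the arm around the calls, so 15 of 200 is not a share of the arm. The bird chromosome of the 15 was not given by the table. On the list, C8H1orf52 carries a symbol that names a bird chromosome before the H, and it was not called (log2 difference 0.12).

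PIGK, the catalytic subunit of the enzyme that attaches GPI anchors to proteins, had the smallest p of the class. The females held 164, 151, 170, 173 and 188 CPM and the males 347, 364, 292, 317 and 404 CPM. The lowest male stood above the highest female by more than the whole spread of the females. Males exceeded females by a log2 difference of 1.02 (SE 0.0982, edgeR adjusted p = 7.8e-05). In the other 9 species it was -0.00 (edgeR adjusted p = 0.995), and Carolina Wrens differed from them by 1.04 (edgeR interaction, adjusted p = 4.26e-07). House Wrens had an estimate of -0.10, which was not called, and differed from Carolina Wrens by 1.13 (edgeR interaction, adjusted p = 0.000351).

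KYAT3, a kynurenine aminotransferase, had the largest called log2 difference of the class. The females held 34.4, 45.6, 62.0, 39.1 and 40.9 CPM and the males 136, 118, 117, 161 and 79.6 CPM. Male 8 was the lowest male and still above female 6, the highest female. Males exceeded females by a log2 difference of 1.46 (SE 0.195, edgeR adjusted p = 0.000794). House Wren males were also higher, by 0.73 (edgeR adjusted p = 0.00526), and the difference between the wrens did not pass (0.73, adjusted p = 0.291 by edgeR).

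RTCA, an RNA cyclase that acts in RNA repair and tRNA splicing, held 28.3, 22.8, 32.2, 24.1 and 29.7 CPM in females and 62.2, 48.0, 47.0, 48.8 and 49.6 CPM in males. The sexes did not overlap, and male 4 stood above the other males. The log2 difference was 0.90 in Carolina Wrens and 0.72 in House Wrens. It was 0.09 over the other 9 species, House Wrens among them, and 0.02 over the 8 species without House Wrens. DPH5, of the diphthamide pathway of elongation factor 2, was alike, at 0.83 in Carolina Wrens and 0.86 in House Wrens. For DPH5 the estimate was 0.02 over the other 9 species and -0.08 over the 8 without House Wrens.

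EIF2B3, a subunit of the exchange factor that controls translation initiation, held 65.48, 64.96, 61.66, 60.76 and 61.43 CPM in females and 91.42, 95.18, 79.81, 100.02 and 90.18 CPM in males. Males were higher in every bird, and the log2 difference was 0.54 (SE 0.08, edgeR adjusted p = 0.00192). In House Wrens the estimate was -0.22, and the wrens differed by 0.76 (edgeR interaction, adjusted p = 0.000159). MMACHC, which processes vitamin B12, averaged 4.37 ± 0.943 CPM in females and 9.62 ± 1.29 CPM in males. F3, the tissue factor of blood clotting, averaged 64.2 ± 12.9 and 101 ± 4.29 CPM. The remaining members, SELENOF, RPAP2, DNTTIP2, CFAP57, RPF1, ALG14, RWDD3 and CTBS, differed by 0.55 to 1.32. The calls of RWDD3 and CTBS were each lost in 7 of 10 fits that left out 1 bird, and that of ALG14 in 3.

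Set out in the approximate human order, the male-higher genes fell in 2 stretches. CFAP57, EIF2B3 and MMACHC came from the 30 tested genes at the start of the list, and the other 12 from the 73 tested genes between PIGK and DPH5. The bounds of the stretches are called genes, so the gap of 88 tested genes without a call follows from where they were set. Over the 73 genes the median log2 difference was 0.18, and 61 of them were not called. House Wrens, with 496 of 10382 genes called in all (4.78%, and 3.65% higher in males), had male-higher calls in the same stretch for SELENOF, KYAT3, RPAP2, RTCA and DPH5 of the 15, and also for HS2ST1 and DPYD, where the Carolina Wren estimates of 0.26 and 0.67 were not called. House Wrens also had female-higher calls there for RPL5 (-0.32) and SASS6 (-0.48). The other 8 species fitted together had 530 genes called (4.98%, and 4.11% higher in males), and the same 8 taken one by one had 0 male-higher calls for the 15 genes by edgeR. These species are most of the 9 whose lack of a call chose the 15, so this count was largely fixed by the choice.

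**Figure D4:**
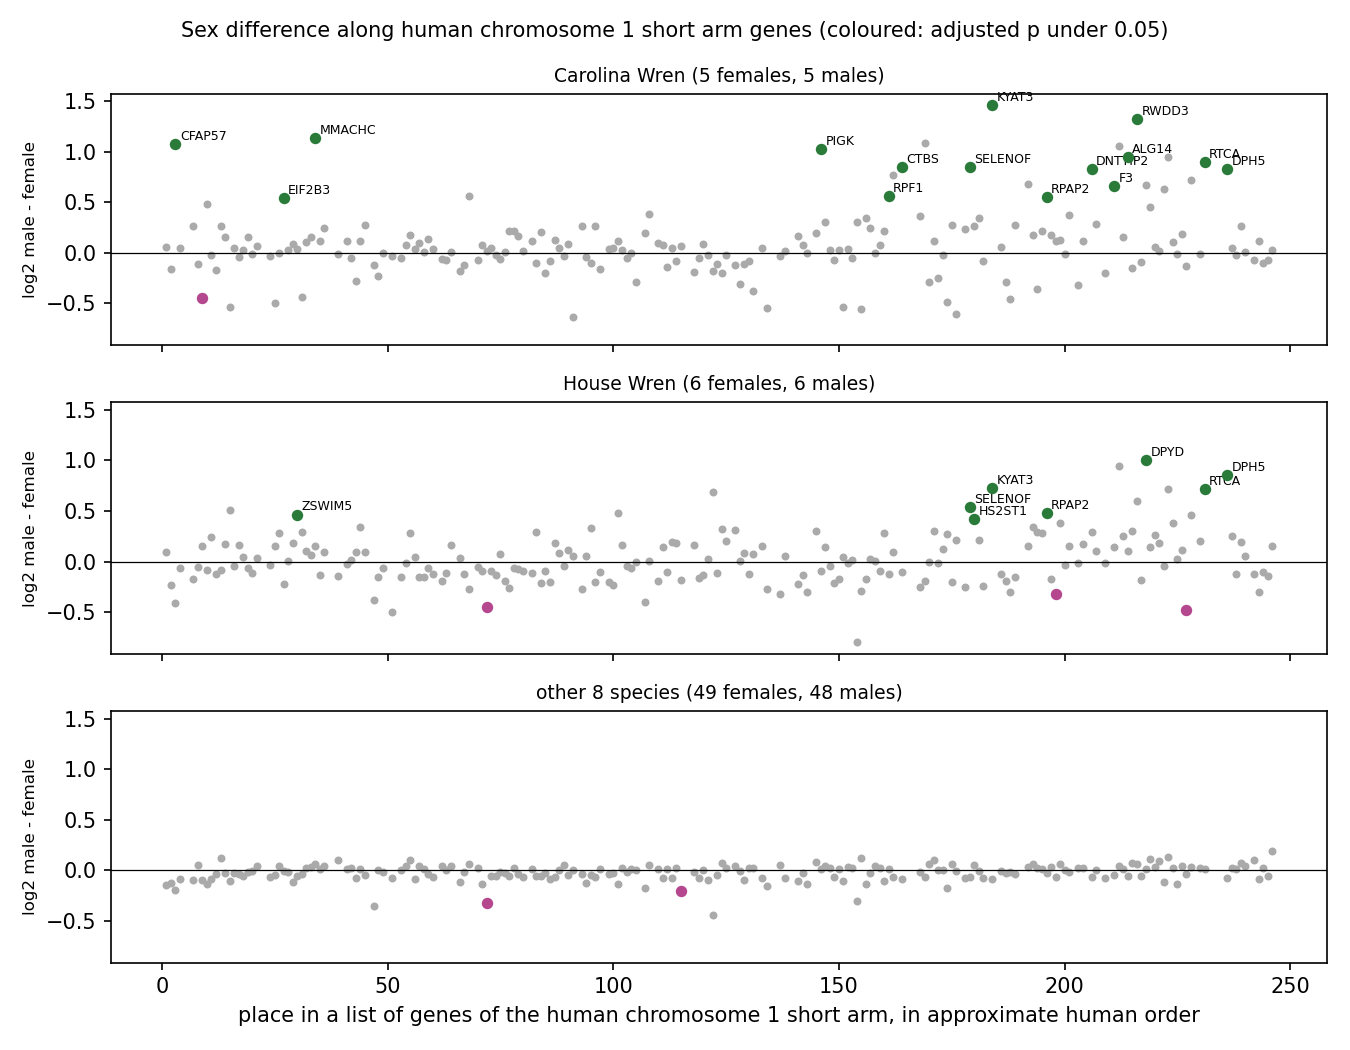
Log2 difference, male minus female, of 200 genes of the human chromosome 1 short arm in approximate human order, for Carolina Wrens, House Wrens and the other 8 species together. Green points, named where the difference is over 0.4, were called higher in males and pink ones higher in females at an adjusted p under 0.05; the calls of Carolina Wrens sit at the start of the list and between PIGK and DPH5, those of House Wrens that they share sit between SELENOF and DPH5, and the other 8 species show no green point.

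The 15 genes moved together in each bird by the same reading as the Z genes. Their median level, centred as before, was -0.55, -0.64, -0.24, -0.38 and -0.32 in the females and 0.45, 0.37, 0.32, 0.40 and 0.44 in the males. The library labelled female 1 stood at 0.35, among the males. The library labelled male 3 stood at -0.21, just above the highest female, with 10 of the 15 genes nearer to the female mean and 5 nearer to the male mean. The 15 were picked for their difference in the 10 birds and for the lack of a call in the other 9 species, House Wrens among them, so these levels are a description, and the left-out libraries alone lay outside that choice. In House Wrens, centred on their own mean, the females ran from -0.30 to 0.01 and the males from 0.02 to 0.22.

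**Figure D5:**
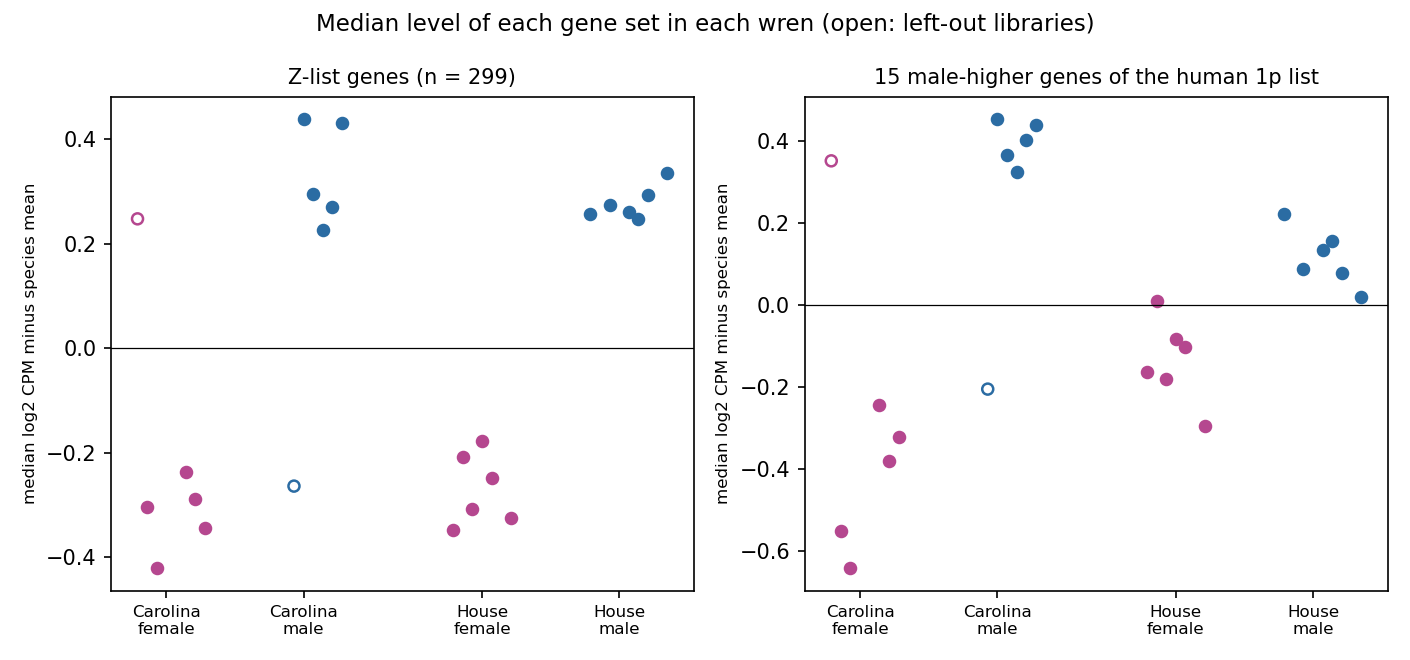
Median log2 level of the 299 Z-list genes (left) and of the 15 male-higher genes of the human chromosome 1 short arm (right) in each Carolina Wren and House Wren, centred on the mean of the species. Open points are the left-out Carolina Wren libraries at their labelled sex; the sexes of both wrens are apart for the Z genes, and for the 15 genes the gap is wide in Carolina Wrens and narrow in House Wrens.

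The difference between the sexes was itself tested between species. Against the other 9 species, the sex difference of Carolina Wrens differed for 23 of 10648 genes (0.216%), toward males for 14 (0.131%) and toward females for 9 (0.0845%). Of the 14, 11 carried a symbol, and 10 of those were of the 15 genes above: PIGK, KYAT3, DNTTIP2, ALG14, MMACHC, RTCA, CFAP57, DPH5, EIF2B3 and CTBS. Leaving out 1 bird at a time ended the call of this difference in 9 of 10 fits for EIF2B3, 8 for CTBS, 6 for DPH5, 5 for CFAP57 and 3 for RTCA. The choice of the 15 by both contrasts favours such an overlap. The 11th was MCM2, a subunit of the replicative helicase, whose call was lost in 7 of the fits. It stood at 5.27 CPM in females and 11.0 CPM in males, where males 4 and 8 were highest at 19.1 and 14.0 CPM. GOLPH3 and ZFR were the 2 genes with a symbol that differed toward females. Against House Wrens alone 22 of 10529 genes differed (0.209%), toward males for 13 (0.123%) and toward females for 9 (0.0855%).

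RPL37 had opposite sex differences in the wrens. It was higher in male Carolina Wrens, at 186, 176, 190, 161 and 212 CPM in females and 338, 370, 327, 366 and 368 CPM in males. In House Wrens it was lower in males, with a log2 difference of -1.08 (edgeR adjusted p = 0.000595). The wrens differed by 2.02 (edgeR interaction, adjusted p = 1.32e-06). Against the other 9 species together the difference of 0.36 did not pass.

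Genes tied to behaviour and to cell types were called about as seldom as other genes. The 14 lists held sex steroid signalling, neuropeptides, monoamines, immediate early genes, mitochondrially encoded genes and markers of 9 cell groups. Of their 172 tested members edgeR called 2, HSD17B4 and CFAP43, beside 2.4% of all genes. Outside the Z list it called 1 of 163, beside 1.05%. DESeq2 called 5 members of the lists, beside 314 of 10413 genes in all. Of 18 sex steroid genes only HSD17B4, itself on the Z, was called. Aromatase (CYP19A1), which makes oestradiol, averaged 12.8 ± 1.71 CPM in females and 14.9 ± 2.49 CPM in males, with overlap (adjusted p = 1.00 by edgeR). The oestrogen receptor ESR2 averaged 7.26 ± 3.42 and 4.24 ± 0.745 CPM. The glucocorticoid receptor NR3C1 averaged 52.2 ± 7.39 and 41.7 ± 4.12 CPM. None of these 3 passed the test (edgeR; the smallest adjusted p was 0.422, for NR3C1).

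Some lists leaned one way without a call. The 7 blood cell markers were lower in males in every estimate, with a median of -0.62, and the 16 immediate early genes had a median of -0.34, as against -0.02 over all genes. The 7 excitatory neuron markers had a median of -0.32 and the 8 oligodendrocyte markers one of 0.35. The summed levels of these lists overlapped between the sexes: blood cell markers ran from 989 to 2501 CPM in females and from 802 to 1465 CPM in males. In tissue such as this, fewer cells of a type and less RNA per cell cannot be told apart.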

How the data were processed

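RNA was sequenced from the ventromedial telencephalon with a strand-marking mRNA kit, per the labels' protocols. The deposited table holds whole-number read counts per gene, made by the authors. Per the submitters' processing notes, featureCounts (Subread 2.02z) was among the tools. The notes also name Bowtie2 2.4.4 and SAMtools 1.10, and for trimming tools Trimmomatic 0.36 with fastp 0.20.1. Not given in the sources used here were the genome, the annotation and the strand setting, and the gene column is headed as zebra finch protein identifiers. Total counts ran from 5849087 to 7549296 in the Carolina Wrens compared and from 4526413 to 7549296 over all birds.

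Male minus female differences were fitted with edgeR 4.0.16 (R 4.3.3), by the quasi-likelihood test after scaling by the trimmed mean of M values and the default filter on low counts, with Benjamini-Hochberg adjustment of p over all genes tested. House Wrens, the other 9 species and the interaction of sex with species were fitted in the same way, with species as a covariate where several entered. CPM use effective library sizes. Alternatives were DESeq2 1.42.0, limma-voom (limma 3.58.1), other scalings and filters, leaving out each bird, and others named in the closing section. For female 6 with male 6, and for the birds numbered 7 and 8, the labels gave no link beyond the number. The correlations of their deviations were -0.50, 0.26 and -0.08, too few to tell whether these birds were paired. The test was checked on simulated data with changes by factors of 1.5, 2 and 4. For the Carolina Wren sex difference it recovered 40.3%, 70.1% and 98.5% of them, with 4 false calls among 143. For the interaction with House Wrens it recovered 16.4%, 58.2% and 92.4%. For the interaction with the other 9 species it recovered 32.8%, 70.1% and 95.5%.

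Named genes were those with a symbol and at least 5 CPM in 1 sex: up to 15 by smallest p among female-higher genes, male-higher Z genes and male-higher genes outside the list, the 6 lowest Z genes and the measured genes of Z and W pairs. Genes of the human chromosome 1 short arm, the roles of Z genes and the human chromosomes were added later. The members and lists were chosen with earlier results of these data known. Z linkage and human positions come from lists of symbols, so no coordinates or sequences are given. Some genes that meet these rules are not reported here.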

Additional observations from a re-analysis of the deposited data

Results flagged for a closer look

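The sex difference of Carolina Wrens differed from that of House Wrens (edgeR interaction on the log2 scale, male minus female) by 3.36 for LOC100190380, -3.91 for GOLPH3, 2.02 for RPL37, 1.13 for PIGK, -1.09 for ZFR, -1.54 for DCAF12 and 0.76 for EIF2B3. It differed by 8.14 for CHD1W, which also chose the libraries and of which male House Wrens held 0 reads, and by -11.28 for LOC116806990. The fitted values for both depend on the prior count, since 1 sex of a species had at most 1 read in all.

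From the other 9 species together it differed by -8.43 for LOC116806990, -3.28 for GOLPH3, -1.69 for ZFR, 1.04 for PIGK, 1.46 for KYAT3, 0.82 for RTCA, 0.59 for EIF2B3, 0.82 for DPH5, 1.07 for MMACHC, 0.88 for DNTTIP2, 1.30 for CFAP57, 1.00 for ALG14 and 0.95 for CTBS.

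Single birds stood apart within their sex in 10 of 168 groups looked at, and chance gives about 1 in 20. Among females these were female 3 for DCTN3 (98.9 CPM), female 6 for TXNL1 (40.9 CPM) and RPAP2 (41.5 CPM), and female 7 for GHR (12.2 CPM). Among males they were male 4 for RTCA (62.2 CPM), male 7 for VIPR1 (9.28 CPM), male 6 for LOC116806990 (0.146 CPM, 1 read), and male 8 for PGR (14.0 CPM), RPAP2 (67.0 CPM) and ALG14 (26.9 CPM). In the libraries left out, CHD1W stood at 8.14 CPM in that labelled female 1 and at 63.9 CPM in that labelled male 3, each against its label.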

How the results depend on the processing

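No named gene that was called, and not the Z median, turned its direction under the alternatives run. Genes that were not called were not checked for this. With all 12 birds under their labels, the counts of genes called in all, in either direction, on the Z list, outside it in either direction, on the human chromosome 1 short arm and in the gene lists were each 0, the Z median was 0.48, and both interactions had 8 genes. Leaving out 1 bird gave 208 to 242 genes in all, 183 to 218 higher in males, 22 to 26 higher in females, 118 to 136 on the Z list, a Z median of 0.62 to 0.69, 85 to 105 outside the list (65 to 84 higher in males, 19 to 23 in females), 12 to 15 of the human chromosome 1 short arm, and 19 to 25 and 16 to 20 genes for the interactions with House Wrens and the other 9 species. Birds 6, 7 and 8 alone, with the number as a replicate block, gave 12 genes, 0 higher in males and 12 in females, 0 on the Z list, 11 outside it (0 and 11) and 0 of the short arm. The same birds without the block gave 64, with 44 higher in males, 29 on the Z list, 33 outside it (15 higher in males) and 2 of the short arm. Alternatives chosen after seeing the data moved the female-higher genes: with the first component as a covariate there were 42 in all and 39 outside the list, and without female 6 and males 4 and 8 there were 34 outside it. DESeq2 called 314 genes in all between the sexes of Carolina Wrens, 5 of them in the lists. It called 89 genes in the House Wren interaction and 898 in House Wrens. The causes were not tested. The 5 birds per sex limit the call of small differences and, on simulated data, of some doublings. Reads of Z and W copies could not be separated.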
